A study of Mus musculus with 12 samples.

Results

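Krüppel-like factors (KLFs) are zinc finger transcription factors, and the 7 described here are Klf2, Klf3, Klf4, Klf6, Klf7, Klf10 and Klf13. They were chosen by gene symbol, among 36222 genes of the table, and each symbol had 1 gene identifier. The question was at what level each KLF was transcribed in mouse regulatory T cells (Treg), and how that level differed with loss of Ikaros and with T cell receptor stimulation. The data were RNA-seq of 12 libraries in 4 groups of 3, with cells taken from individual mice. Whether the ex vivo and stimulated libraries of a genotype came from the same mice is not given in the sources used here. Wild-type (WT) mice carried only Foxp3-YFP-Cre, a Cre recombinase and yellow fluorescent protein expressed from the Foxp3 locus. The conditional knockout (cKO) mice also carried a floxed Ikzf1, the gene of Ikaros, so that deletion was restricted to cells that had turned on Foxp3. All animals therefore carried the Cre, were on the B6 background and were 6 to 8 weeks old. Treg were sorted as YFP+ cells from CD4+ cells. The labels give the spleen as their tissue, and the general description of the sort in the methods names lymph nodes as well. RNA was taken without further treatment (ex vivo) or after 4 h on plate-bound antibodies to CD3 and CD28, each at 1 µg/ml (stimulated). Values are TPM as deposited, a level that allows for transcript length and for the library total.

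KLF proteins bind GC-rich and CACCC sequences through zinc fingers at the carboxy end, and differ in the parts of the protein that recruit activators or repressors. In T cells KLF2 is best known as a factor of the quiescent, circulating state. It is needed for transcription of S1pr1, the receptor through which T cells leave lymphoid organs. T cell receptor signals are known to shut Klf2 off, while FOXO1 and the ERK5 to MEF2 route turn it on.

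The promoters of Klf2, Klf4, Klf6 and Klf3 are printed because the first 3 had the largest falls on stimulation among the 7 KLFs and Klf3 had the smallest change. Each is the RefSeq window of 300 bases on GRCm38.p6, from 250 bases before to 50 bases after the start of the gene, 5′ to 3′ on the strand of the gene. A window was given for 6 of the 7 genes. The window of Klf2 lies at chr8:72318812-72319111 (+), that of Klf4 at chr4:55532426-55532725 (-), that of Klf6 at chr13:5861239-5861538 (+) and that of Klf3 at chr5:64803271-64803570 (+). Capitals mark the SP GC box (GGGCGG or its reverse complement CCGCCC) and the KLF core (CACCC or GGGTG), which can share bases where they meet.
Klf2: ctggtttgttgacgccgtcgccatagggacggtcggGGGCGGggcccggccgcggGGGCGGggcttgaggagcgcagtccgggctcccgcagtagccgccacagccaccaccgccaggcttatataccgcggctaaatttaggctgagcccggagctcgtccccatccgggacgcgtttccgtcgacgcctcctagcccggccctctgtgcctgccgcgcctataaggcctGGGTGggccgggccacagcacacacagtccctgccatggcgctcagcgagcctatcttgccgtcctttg
Klf4: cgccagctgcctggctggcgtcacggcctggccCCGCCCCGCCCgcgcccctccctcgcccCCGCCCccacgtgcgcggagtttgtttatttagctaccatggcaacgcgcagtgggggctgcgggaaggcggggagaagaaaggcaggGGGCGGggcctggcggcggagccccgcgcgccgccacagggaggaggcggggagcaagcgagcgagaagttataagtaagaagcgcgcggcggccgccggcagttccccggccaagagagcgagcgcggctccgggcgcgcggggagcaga
Klf6: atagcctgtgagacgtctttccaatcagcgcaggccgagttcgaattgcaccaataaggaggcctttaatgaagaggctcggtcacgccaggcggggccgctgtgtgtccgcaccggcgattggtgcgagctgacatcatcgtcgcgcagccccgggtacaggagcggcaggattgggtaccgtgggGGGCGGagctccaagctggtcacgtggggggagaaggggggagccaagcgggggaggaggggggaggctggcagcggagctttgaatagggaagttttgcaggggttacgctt
Klf3: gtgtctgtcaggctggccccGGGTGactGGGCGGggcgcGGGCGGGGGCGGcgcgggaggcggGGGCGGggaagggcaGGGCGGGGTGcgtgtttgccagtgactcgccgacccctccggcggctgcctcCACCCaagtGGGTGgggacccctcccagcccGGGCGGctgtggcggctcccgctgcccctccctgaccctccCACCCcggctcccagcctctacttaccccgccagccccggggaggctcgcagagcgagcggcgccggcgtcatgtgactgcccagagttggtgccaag

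The GC box was present in all 6 windows and in 35.7% of the 32851 RefSeq windows of this length. Klf2 had 2 GC boxes and 1 KLF core, Klf4 had 4 GC boxes and no KLF core, Klf6 had 1 GC box and no KLF core, and Klf3 had 6 GC boxes and 5 KLF cores. The KLF core was present in 4 of the 6 windows (Klf2, Klf3, Klf7 and Klf13) and in 57.5% of all windows. The GC content was 69.3% for Klf2, 74.3% for Klf4, 63% for Klf6 and 76.7% for Klf3, against a median of 52.7% over all windows. Both strands were also searched for TGACGTCA (a cyclic AMP response element), GTAAACA (forkhead), TGGGAA (the Ikaros core with a T before it) and GGGACTTTC (NF-kB). They occur in 1.79%, 3.65%, 25.6% and 0.353% of all windows. These letters were not in the 6 windows. The paper names GGGAA as the Ikaros core. That shorter form was not searched for, and it can be read in the printed windows of Klf3, Klf4 and Klf6.

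On build mm9 the protein-coding genes lie apart, Klf2 at chr8:74842932-74845555 (+), Klf3 at chr5:65194628-65221368 (+), Klf4 at chr4:55540013-55545347 (-), Klf6 at chr13:5860735-5869639 (+), Klf7 at chr1:64076021-64168856 (-), Klf10 at chr15:38221219-38230464 (-) and Klf13 at chr7:71031237-71083801 (-). Only Klf7 overlaps other annotated genes, Gm17427 and Gm13748, which are on the opposite strand, and reads were counted by strand.

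Libraries held 8208659 to 20247649 reads assigned to genes. Ikzf1, the deleted gene, served as the check of the labels. It ranged from 83.8 to 125 TPM in WT and from 38.8 to 44.3 TPM in cKO ex vivo, and from 66.4 to 83.4 TPM in WT and 17.04 to 31.6 TPM in cKO after stimulation. The Treg markers Foxp3, Il2ra, Ctla4, Ikzf2, Cd4 and Cd3e summed to 791 to 2315 TPM per library. Marker lists of CD8 T cells, myeloid cells, NK cells and erythroid cells summed to between 2.35 and 16.3 TPM per library, and Hba-a1 was at 0 in all WT stimulated libraries. The B cell markers reported here (Ms4a1, Cd79a, Cd79b) summed to 7.27 to 10.4 TPM in WT and 13.8 to 16.9 TPM in cKO ex vivo, mostly through Cd79b (means 5.94 and 11.9 TPM), so that they moved with genotype, and their part in the KLF differences was not tested. The transcript Gm10800 took 17.7% to 55.9% of all TPM in a library, and its share moved with the groups. It took 17.7% to 39.8% in WT and 20.4% to 24.4% in cKO ex vivo. After stimulation it took 32.6% to 44.4% in WT and 42.9% to 55.9% in cKO. A high share lowers the TPM of every other gene. Differences were therefore tested on TPM scaled between libraries, as log2(scaled TPM + 1), and are called log2 differences. In bulk RNA, fewer cells of a kind and less RNA per cell cannot be told apart.

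Klf2 was the most abundant KLF in every group, and Klf2 and Klf6 together dominated the family ex vivo. In WT ex vivo the means were 1421 ± 339 TPM for Klf2, 782 ± 171 for Klf6, 151 ± 28.5 for Klf4, 93.8 ± 33.7 for Klf13, 84.8 ± 23.5 for Klf3, 26.1 ± 11.5 for Klf7 and 20.1 ± 3.70 for Klf10 (SD, n = 3). The order of Klf13 against Klf3 and of Klf7 against Klf10 was within the spread of the libraries. The ranges of Klf4 and Klf13 overlapped as deposited but not once libraries were scaled, and Klf4 was above Klf13 in each of the 3 libraries. In cKO ex vivo the order of the first 5 was the same, and Klf10 (34.4 ± 1.011 TPM) stood above Klf7 (27.4 ± 3.43 TPM), an order within the spread once libraries were scaled.

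After stimulation the order was different, with Klf4 no longer in the third place. In WT stimulated libraries it ran Klf2 (131 ± 3.75 TPM), Klf3 (75.7 ± 6.57), Klf6 (72.3 ± 5.35), Klf13 (57.9 ± 4.95), Klf7 (14.7 ± 0.900), Klf4 (11.1 ± 1.09) and Klf10 (6.63 ± 0.935), with the ranges of Klf3 and Klf6 overlapping, and after scaling also those of Klf6 and Klf13 and of Klf7 and Klf4. In cKO stimulated libraries it ran Klf2 (74.7 ± 12.02 TPM), Klf6 (53.1 ± 11.6), Klf13 (40.9 ± 9.79), Klf3 (39.0 ± 6.91), Klf4 (11.8 ± 1.92), Klf7 (8.95 ± 1.64) and Klf10 (5.12 ± 1.38), with Klf6 to Klf3 and Klf4 to Klf7 overlapping their neighbours as deposited, and only Klf13 and Klf3 after scaling.

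**Figure D1:**
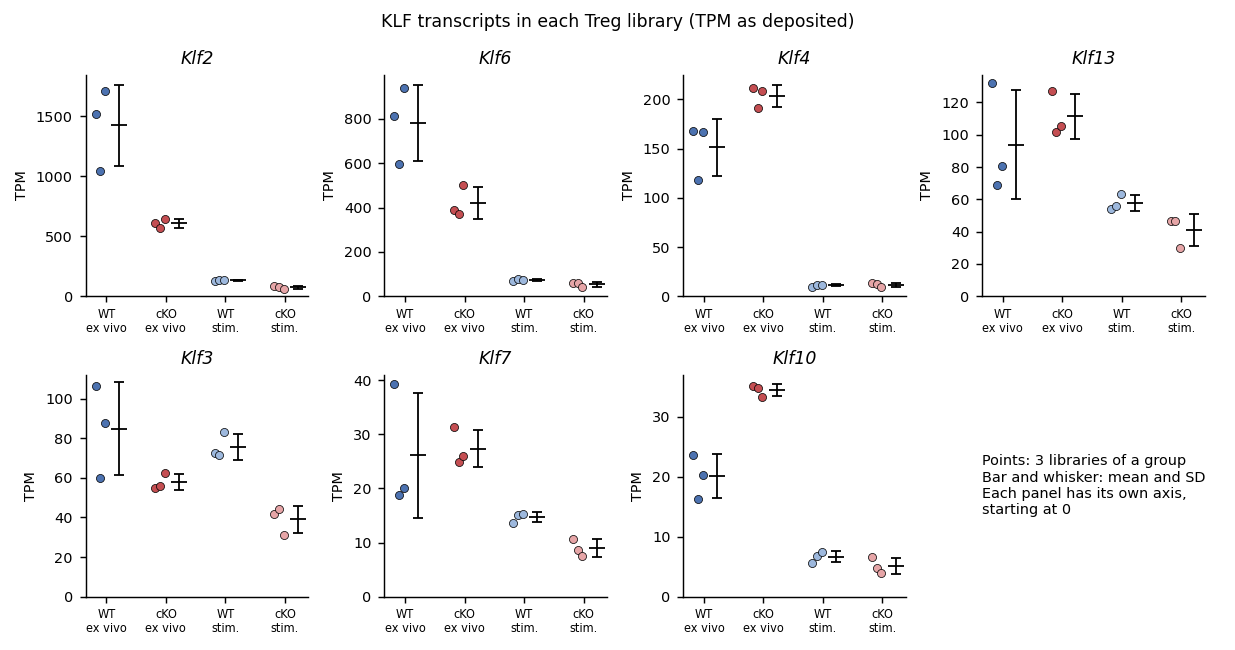
TPM as deposited (y axis, linear from 0, a scale for each gene) of the 7 KLF genes in the 4 groups, with a point for each of the 3 libraries and the mean and SD beside them. Klf2 stands between 1045 and 1704 TPM in WT ex vivo, between 564 and 644 TPM in cKO ex vivo and at or below 133 TPM in the stimulated libraries, while Klf3 differs little between ex vivo and stimulated WT libraries.

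The other 10 KLF genes of the table set the scale for these levels. Only Klf9, Klf11 and Klf16 reached a group mean of 5 TPM, with 17.6, 28.6 and 18.2 TPM in WT ex vivo. The remaining 7 had group means from 1.19 to 3.52 TPM, among them Klf1, the erythroid KLF, and Klf5, an epithelial KLF.

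**Figure D2:**
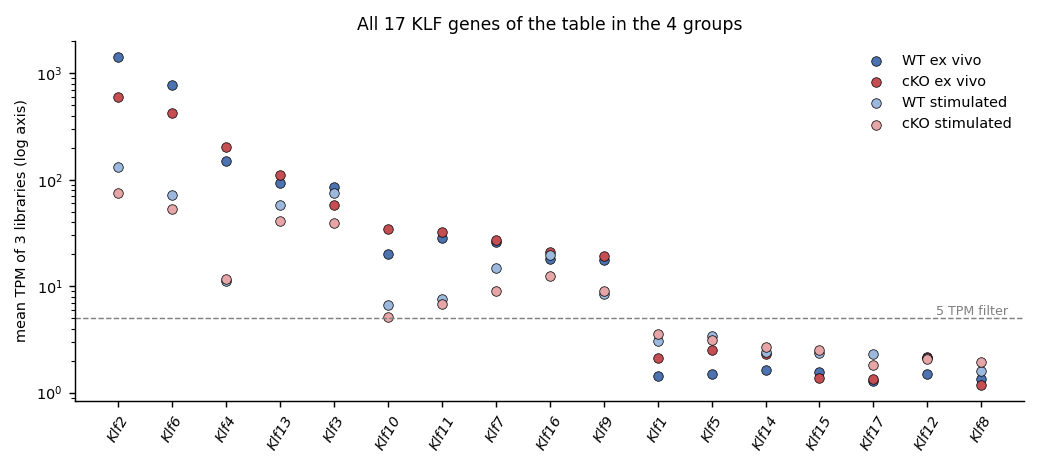
Mean TPM of 3 libraries (log axis) for all 17 KLF genes of the table in the 4 groups, ordered by their highest group mean, with the 5 TPM filter as a dashed line. The 7 genes to the right lie between 1.19 and 3.52 TPM in all groups, and the ex vivo means of the 7 KLFs described here are at least 20.1 TPM.

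Loss of Ikaros ex vivo went with lower Klf2, Klf6 and Klf3 and higher Klf10, while no difference was detected for Klf4, Klf7 and Klf13. Of the 7 genes 4 were called at an adjusted p under 0.05 (limma with Benjamini-Hochberg adjustment over 13318 genes), against 5.29% of all genes. The 3 lower calls compare with 1.67% of genes called as lower, and the 1 higher call with 3.62%. The median log2 difference was -0.09 over the 7 genes and -0.01 over all genes tested.

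Ex vivo, Klf2 was measured at 1514, 1045 and 1704 TPM in WT, compared with 610.1, 564 and 644 TPM in cKO. Each cKO library was below each WT library. The log2 difference was -1.44 (SE 0.15, adjusted p = 0.000482, limma), a 2.71-fold lower level, and it was called with each of the 12 libraries left out in turn. Only 41 of the 13318 genes had a lower log2 difference.

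Klf6, an immediate early KLF with a broad range of targets, had 811, 598 and 937 TPM in WT, compared with 391, 371 and 503 TPM in cKO ex vivo. Here too the groups were apart. The log2 difference was -1.12 (SE 0.18, adjusted p = 0.00559, limma), a 2.17-fold lower level. On TPM as deposited the call was lost (adjusted p = 0.0724).

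Klf3, a repressor that works through CtBP and is itself a known target of other KLFs, had 107, 59.9 and 87.9 TPM in WT, compared with 54.8, 55.9 and 62.3 TPM in cKO ex vivo. As deposited the groups overlapped. The WT library at 59.9 TPM was also the ex vivo library with the highest Gm10800 share (39.8%), and after scaling the groups were apart (74.1 to 96.9 against 47.6 to 56.2 scaled TPM). Its log2 difference was -0.75 (SE 0.12, adjusted p = 0.00637, limma), and on TPM as deposited it was not called (adjusted p = 0.311).

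Klf10, a TGF-beta inducible KLF with repressor activity, moved the other way, with 23.7, 16.3 and 20.3 TPM in WT and 35.3, 34.8 and 33.3 TPM in cKO ex vivo. The groups were apart on both scales. The log2 difference was 0.53 (SE 0.11, adjusted p = 0.0220, limma), a 1.45-fold higher level, and the call was lost when WT ex vivo replicate 1, 2 or 3 or cKO ex vivo replicate 1 or 3 was left out (adjusted p up to 0.0930). It was also lost with the replicate block (adjusted p = 0.0538), on TPM as deposited (adjusted p = 0.0564) and with quantile normalization (adjusted p = 0.110).

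Klf4, a KLF that restrains T cell proliferation, stood at 168, 118 and 167 TPM in WT and 211, 191 and 209 TPM in cKO ex vivo. The TPM as deposited were apart, but the scaled values overlapped and the log2 difference was 0.21 with a 95% confidence interval from -0.09 to 0.51. Klf13, a factor linked to late chemokine transcription in T cells, stood at 132, 68.7 and 80.6 TPM in WT and 127, 101.6 and 106 TPM in cKO, with a log2 difference of 0.06 (-0.30 to 0.42). Klf7, known from neurons and lymphoid progenitors, stood at 39.4, 18.8 and 20.2 TPM in WT and 31.3, 24.8 and 26.1 TPM in cKO, with a log2 difference of -0.09 (-0.50 to 0.32). The groups of Klf13 and Klf7 overlapped, and WT ex vivo replicate 1 was the highest of the WT libraries for both.

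With 3 libraries against 3, the exact permutation test of a single gene cannot go below p = 0.1, which it reached on scaled TPM for Klf2, Klf3, Klf6 and Klf10. The share of all genes that reached it was not computed, so this adds nothing to the calls. The limma calls ex vivo also depend on the filter. With genes from 1 TPM in the fit, none of the 7 was called ex vivo. The adjusted p was 0.0766 for Klf2, 0.447 for Klf3, 0.243 for Klf6 and 0.627 for Klf10, at log2 differences of -1.46, -0.76, -1.13 and 0.52.

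After stimulation 1 of the 7 genes differed between the genotypes, Klf3, against 6.93% of all genes called and 3.63% called as lower. Klf3 had 72.4, 71.4 and 83.3 TPM in WT, compared with 41.8, 44.1 and 31.2 TPM in cKO, with all cKO libraries below all WT libraries. The log2 difference was -0.66 (SE 0.12, adjusted p = 0.00946, limma), a 1.59-fold lower level. Without WT stimulated replicate 2 the adjusted p was 0.0546, and with genes from 1 TPM in the fit it was 0.202.

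Stimulated Treg had 127, 133 and 133 TPM of Klf2 in WT, compared with 83.8, 79.3 and 61.05 TPM in cKO. The groups did not overlap on either scale. The log2 difference of -0.53 (95% confidence interval -0.86 to -0.20) had an adjusted p of 0.0598 (limma), just over the threshold, and was called without WT ex vivo replicate 3 (adjusted p = 0.0396) and with limma voom on reads (adjusted p = 0.00403).

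Klf6 had 66.8, 77.5 and 72.8 TPM in WT, compared with 59.996, 59.7 and 39.7 TPM in cKO, with a log2 difference of -0.17 (-0.57 to 0.22). Klf4 stood at 9.85, 11.9 and 11.6 TPM in WT and 12.97, 12.8 and 9.55 TPM in cKO, with a log2 difference of 0.34 (0.04 to 0.64) and an adjusted p of 0.162 (limma). Neither was called, and on scaled TPM their groups overlapped.

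Klf13 stood at 54.2, 55.9 and 63.5 TPM in WT and 46.8, 46.3 and 29.6 TPM in cKO (log2 difference -0.23, -0.59 to 0.13). Klf7 stood at 13.7, 15.1 and 15.4 TPM in WT and 10.7, 8.59 and 7.52 TPM in cKO (-0.40, -0.81 to 0.00), with the groups apart on both scales. Klf10 stood at 5.62, 6.79 and 7.47 TPM in WT and 6.63, 4.82 and 3.92 TPM in cKO (-0.09, -0.34 to 0.16). The cKO stimulated replicate 3, whose Gm10800 share was 55.9%, was the lowest library of its group as deposited for all 7 KLFs, and after scaling it was the lowest of that group for Klf6, Klf10 and Klf13.

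KLF transcripts were much lower after 4 h of stimulation than ex vivo in both genotypes. The stimulated cells were also held in culture for that time, and no group was cultured without the antibodies, so that stimulation, culture and handling after the sort cannot be told apart. In WT, 6 of the 7 genes were called, all 6 as lower, against 32% of all genes called and 19.3% called as lower. In cKO the same count was 6 of 7, all as lower, against 43.8% called and 26.5% called as lower. Klf3 was the exception in both. The share of lower among all calls depends on the scaling, at 60.4% in WT and 60.5% in cKO, against 13.7% and 31.3% with Gm10800 left out and 39.5% and 88.1% on TPM as deposited. The median log2 difference over the 7 genes was -1.64 in WT and -2.26 in cKO, against 0.00 and -0.01 over all genes tested.

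In WT the log2 difference was -3.83 for Klf4 (SE 0.14, adjusted p = 1.04e-07, limma), -3.60 for Klf2 (SE 0.15, adjusted p = 2.07e-07) and -3.59 for Klf6 (SE 0.18, adjusted p = 7.28e-07). These were 14.2-fold, 12.1-fold and 12.1-fold falls, and ranked 3, 7 and 8 from the lowest among the 13318 genes. On scaled TPM, Klf2 kept 8.16% of its ex vivo mean, Klf6 8.19% and Klf4 6.51%. The stimulated libraries were below all ex vivo libraries of the same genotype for each of the 3 genes.

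Klf10 fell 3.12-fold in WT (log2 difference -1.64, adjusted p = 3.82e-06, limma). Klf7 fell 1.86-fold (-0.90, adjusted p = 0.00368) and Klf13 1.78-fold (-0.83, adjusted p = 0.00307). For Klf3 the log2 difference was -0.32 (-0.60 to -0.05) with an adjusted p of 0.0683, and its stimulated libraries (71.4 to 83.3 TPM) lay within the ex vivo range as deposited. On scaled TPM they were at 64.7, 76.5 and 68.8, against 74.1 to 96.9 ex vivo, so that the groups overlapped through 1 stimulated library. Klf3 was called without WT ex vivo replicate 2 (adjusted p = 0.0178) and with limma voom on reads (adjusted p = 0.0392). Its sign turned with Gm10800 left out (0.12) and with quantile normalization (0.068). The calls of Klf7 and Klf13 were lost on TPM as deposited (adjusted p = 0.0623 and 0.104) and with Gm10800 left out (adjusted p = 0.0735 and 0.0932), as was that of Klf13 with genes from 1 TPM (adjusted p = 0.0528).

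In cKO the log2 difference was -3.70 for Klf4 (adjusted p = 1.01e-07, limma), -2.69 for Klf2 (adjusted p = 1.13e-06) and -2.65 for Klf6 (adjusted p = 2.73e-06). Klf2 thus kept 15.3% of its ex vivo mean on scaled TPM, Klf6 15.6% and Klf4 7.20%. Klf10 fell 4.80-fold (adjusted p = 5.78e-07), Klf7 2.32-fold (adjusted p = 0.000462) and Klf13 2.17-fold (adjusted p = 0.000386). For Klf3 the log2 difference was -0.24 (-0.51 to 0.03) with an adjusted p of 0.133, and it too turned positive with Gm10800 left out (0.019) and with quantile normalization (0.21). The cKO groups of Klf3 were apart as deposited and overlapped on scaled TPM, and the difference was called without cKO stimulated replicate 2 (-0.37, adjusted p = 0.0445).

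Genes that T cell receptor signals are known to induce moved in both directions. Among 5 such genes, read as a check of the stimulation, Egr2 and Myc rose in both genotypes, with log2 differences of 1.48 and 0.61 in WT and 1.30 and 0.64 in cKO. Cd69 fell, by 1.36 in WT and by 1.71 in cKO on the log2 scale, and Nr4a1 fell by 0.55 in WT, where quantile normalization turned it to 0.25 and 11 of 22 alternatives kept the call. Il2ra rose in cKO, with a log2 difference of 0.65, and was not called in WT. Thus 2 of the 5 were called as higher and 2 as lower in WT, beside 12.7% and 19.3% of all genes. In cKO 3 were called as higher and 1 as lower, beside 17.3% and 26.5%. With genes from 1 TPM in the fit Egr2 and Cd69 were called in WT and Cd69 alone in cKO.

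For 11 immediate early and heat shock genes, a list added after the KLF values were seen, the level was also high ex vivo and lower after stimulation. In WT 10 of 11 were called as lower, against 19.3% of all genes, and in cKO 11 of 11, against 26.5%, with median log2 differences of -3.07 and -2.91. Fos ranged from 548 to 1100 TPM in WT ex vivo and from 64.2 to 80.9 TPM in WT stimulated libraries, and Junb from 1734 to 2716 and from 301 to 321 TPM. Jun stood at 388 to 710 TPM in WT and 195 to 344 TPM in cKO ex vivo (log2 difference -1.28, adjusted p = 0.00696, limma). It was the only gene of this list called between the genotypes ex vivo, beside 1.67% of all genes called as lower. Nr4a1, which is outside this list, was also called as lower in cKO ex vivo. After stimulation 1 of the 11 was called, Atf3, which was higher in cKO (0.77, adjusted p = 0.0164, limma), beside 3.3% of all genes called as higher. Klf2, Klf4 and Klf6 are also known as immediate early genes. These genes therefore moved with the KLFs on stimulation, and their part in the KLF differences was not tested.

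**Figure D3:**
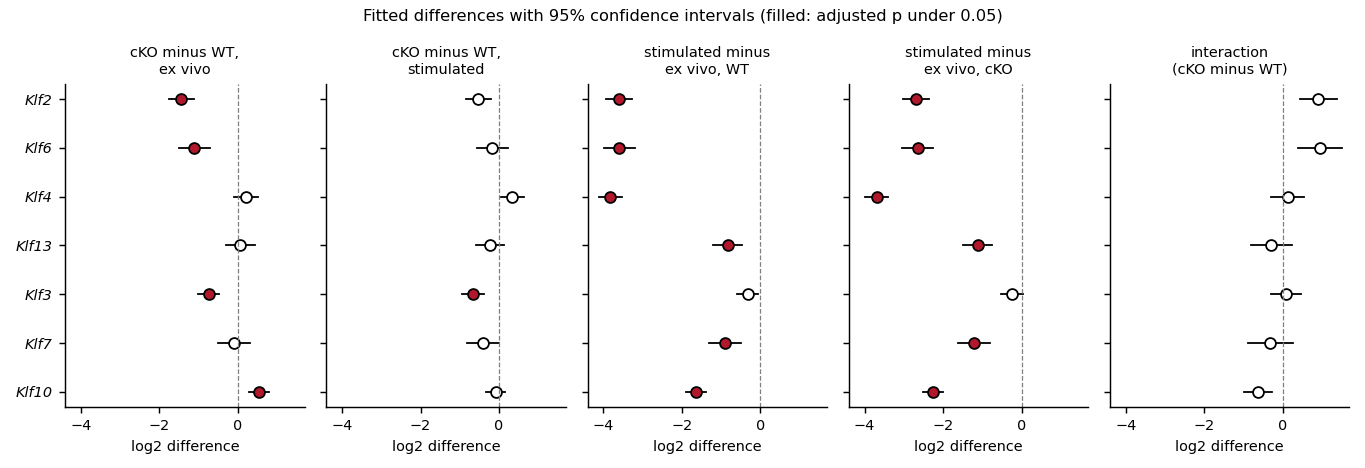
Log2 differences (x axis, log2 of scaled TPM + 1) of the 7 KLF genes in the 5 comparisons, with 95% confidence intervals and filled points where the adjusted p was under 0.05. Klf2, Klf4 and Klf6 lie between -3.83 and -2.65 in both stimulation panels, and Klf3 is the filled point of the second panel.

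Whether stimulation changed a KLF by a different amount in the 2 genotypes was tested by the interaction. None of the 7 genes was called, against 1.1% of all genes, while 3 of the 7 had an unadjusted p under 0.05. These were Klf2 with an interaction of 0.91 (95% confidence interval 0.45 to 1.38, adjusted p = 0.0689, limma), Klf6 with 0.94 (0.39 to 1.503, adjusted p = 0.110) and Klf10 with -0.62 (-0.98 to -0.27, adjusted p = 0.1001). With limma voom on reads 2 of the 7 were called, Klf2 (adjusted p = 0.00903) and Klf6 (adjusted p = 0.0187). The same 2 were called after quantile normalization (adjusted p = 0.00858 and 0.0352), and without WT stimulated replicate 1 Klf10 was called (adjusted p = 0.0487). The intervals for Klf3 (-0.30 to 0.47), Klf4 (-0.29 to 0.55), Klf7 (-0.89 to 0.26) and Klf13 (-0.81 to 0.22) included 0.

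The makeup of the family within a library does not depend on scaling between libraries. Klf2 transcripts made up 55.0% ± 1.30 (WT) and 41.5% ± 0.714 (cKO) of the summed TPM of the 7 genes ex vivo, and 35.5% ± 0.986 (WT) and 32.1% ± 1.24 (cKO) after stimulation (SD, n = 3). The ranges of the 4 groups did not overlap. Klf4 made up 5.90% ± 0.313 in WT and 14.0% ± 0.668 in cKO ex vivo, and 3.00% ± 0.186 in WT and 5.06% ± 0.156 in cKO after stimulation.

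The ratio of Klf2 to Klf4 was 9.01, 8.84 and 10.2 in the WT ex vivo libraries and 2.89, 2.96 and 3.08 in the cKO ex vivo libraries. After stimulation it was 12.9, 11.2 and 11.5 in WT and 6.46, 6.19 and 6.39 in cKO. The cKO libraries were below the WT libraries in both states, each with the smallest exact permutation p that the design allows, 0.1 (two-sided, n = 3). Of 4 ratios computed, those of Klf2 to Klf10, Klf2 to Klf3 and Klf6 to Klf13 were also lower in all cKO libraries ex vivo. After stimulation the ratio of Klf2 to Klf10 was lower in cKO (20.01 in WT and 14.9 in cKO), while those of Klf2 to Klf3 (1.74 and 1.92) and of Klf6 to Klf13 (1.25 and 1.303) overlapped between the genotypes, with the higher mean in cKO (exact permutation p = 0.2 and 0.5). The Klf3 share was 3.28% ± 0.474 ex vivo and 20.5% ± 1.17 after stimulation in WT, and 3.95% ± 0.205 and 16.7% ± 0.737 in cKO, although its mean TPM was not higher after stimulation.

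**Figure D4:**
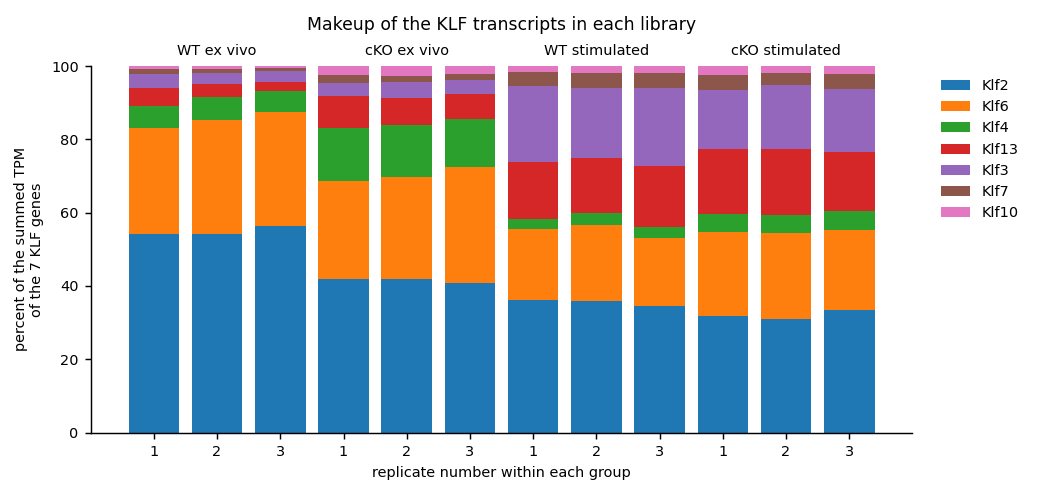
Percent of the summed TPM of the 7 KLF genes (y axis) taken by each gene in each of the 12 libraries (x axis, replicate number within its group). The Klf2 share is 55.0% on average in WT ex vivo and 41.5% in cKO ex vivo, and the Klf3 and Klf13 shares are larger in the stimulated libraries.

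The trafficking genes linked to KLF2 were read beside it, with 7 genes of the list reported here. Ex vivo none of the 7 was called as lower in cKO, against 1.67% of all genes, and 1 was higher, against 3.62%. This was Cxcr3, the receptor for interferon-induced chemokines, with a log2 difference of 1.00 (adjusted p = 0.000278, limma). After stimulation 4 of the 7 were lower in cKO, against 3.63% of all genes, and none was higher, with log2 differences of -1.26 for S1pr1, -0.82 for S1pr4, -0.53 for Il7r and -0.41 for Itgb7. The calls of Il7r and Itgb7 held in 13 of 22 alternatives each (adjusted p up to 0.263 and 0.282), and those of S1pr1 and S1pr4 in 20 of 22. Ccr7, the lymph node homing receptor, was at -0.83 with an adjusted p of 0.0554. The median log2 difference of these 7 was -0.38 ex vivo and -0.55 after stimulation, beside -0.01 and -0.03 over all genes tested. With genes from 1 TPM in the fit none of the 7 was called between the genotypes, ex vivo or after stimulation.

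S1pr1 stood at 338 ± 111 TPM in WT and 256 ± 41.6 TPM in cKO ex vivo, and at 144 ± 7.92 TPM in WT and 49.1 ± 8.74 TPM in cKO after stimulation (SD, n = 3). The means of S1pr1 and of Klf2 were both lowest in the cKO stimulated group, but their calls differed. Ex vivo Klf2 was called between the genotypes and S1pr1 was not (-0.60, adjusted p = 0.0833, limma). After stimulation S1pr1 was called and Klf2 was not (adjusted p = 0.0598, limma). A link between the 2 was not tested. On stimulation 4 of the 7 fell in WT and 7 of 7 in cKO, against 19.3% and 26.5% of all genes, and only Cxcr3 had a called interaction (-0.86, adjusted p = 0.0164). With genes from 1 TPM in the fit 3 of 7 (S1pr1, Itgb7 and Cd69) and 7 of 7 were called, and the interaction of Cxcr3 was not. In that fit 83.5% of all calls in WT and 87.2% in cKO were lower. The largest falls were those of S1pr1 (-1.37), Itgb7 (-1.36) and Cd69 (-1.36) in WT and of S1pr1 (-2.03) and Cd69 (-1.71) in cKO. The WT difference of S1pr4 (-0.36) turned to 0.08 with Gm10800 left out.

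**Figure D5:**
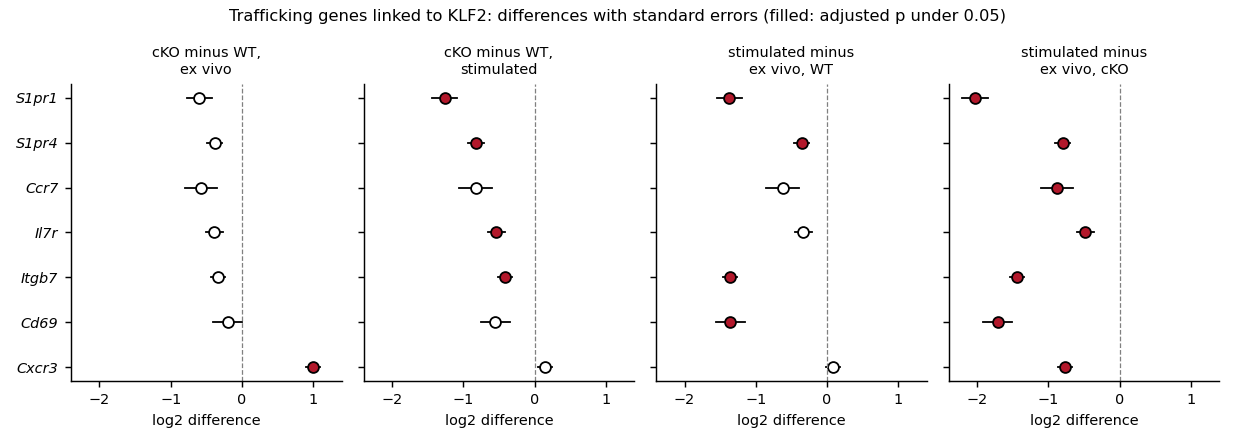
Log2 differences (x axis) with standard errors of 7 trafficking genes linked to KLF2 in the genotype and stimulation comparisons, filled where the adjusted p was under 0.05. In the second panel S1pr1 and S1pr4 lie at -1.26 and -0.82, and Cxcr3 is the only gene above 0 in the first panel.

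Of 10 genes known to regulate Klf2 or its protein, 9 were tested. Between the genotypes only Mef2a was called, ex vivo, with a log2 difference of -0.32 (adjusted p = 0.0240, limma), beside 5.29% of all genes called. The call held in 12 of 22 alternatives (adjusted p up to 0.857). Foxo1, the main activator of Klf2 in T cells, was at 0.03 ex vivo and at -0.50 after stimulation (adjusted p = 0.964 and 0.0844).

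On stimulation 1 of the 9 was called as higher and 3 as lower in WT, where 12.7% of all genes were called as higher and 19.3% as lower. Mapk7, which encodes ERK5, was at 0.59 and Foxo3, Mef2d and Mef2a were at -0.56, -0.56 and -0.28, the last of which turned to 0.15 with Gm10800 left out. In cKO 1 was also higher and 3 were lower, against 17.3% of all genes called as higher and 26.5% as lower, with Mapk7 at 0.74 and Mef2d, Foxo1 and Foxo3 at -1.03, -0.88 and -0.55. The median of the 9 was -0.27 in WT and -0.20 in cKO.

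The TGF-beta genes linked to KLF10 numbered 9, and all were tested. Ex vivo Tgfbr1 was lower in cKO (log2 difference -0.35, adjusted p = 0.0433, limma), 1 of 9 beside 1.67% of all genes called as lower, but the call held in only 6 of 22 alternatives (adjusted p up to 0.827). After stimulation Smad3 (-0.73) and Smad7 (-0.54), the latter an inhibitor of TGF-beta signals, were lower and Foxp3 (0.96) was higher, 3 of 9 beside 6.93% of all genes called. The call of Smad7 held in 10 of 22 alternatives (adjusted p up to 0.263), that of Smad3 in 20 and that of Foxp3 in 19. On stimulation Smad7 fell in both genotypes, by 1.18 in WT and by 1.66 in cKO on the log2 scale, as did Smad3, by 0.47 and by 1.08. Tgfbr1 (-0.38, and 0.05 with Gm10800 left out) and Foxp3 (-0.66) were also called as lower in WT, and Tgfbr2 (-0.53) in cKO, which makes 4 and 3 of the 9, beside 19.3% and 26.5% of all genes. The medians were -0.12 and -0.17 between the genotypes and -0.21 and -0.17 on stimulation.

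The other KLF and SP genes, 19 in all, had 8 members above the filter. Ex vivo none of the 8 was called between the genotypes, beside 5.29% of all genes, and after stimulation Sp3 was lower (-0.50) and Sp6 higher (0.74) in cKO, beside 6.93%. The call of Sp3 held in 19 of 22 alternatives and that of Sp6 in 12 (adjusted p up to 0.439). On stimulation 4 of the 8 fell in WT (Klf9, Klf11, Sp2, Sp6) and 6 of 8 in cKO (Klf9, Klf11, Klf16, Sp2, Sp3, Sp4), against 19.3% and 26.5% of all genes. Klf11, the closest relative of Klf10, fell most, by 1.96 in WT and by 1.796 in cKO on the log2 scale, followed by Klf9 in WT (by 1.13) and Sp3 in cKO (by 0.72). Klf16 fell in cKO (by 0.44) and stood at -0.07 in WT with an adjusted p of 0.691.

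Over the 12 libraries 6 of the 7 KLFs ran close to each other and Klf3 ran apart. Pearson correlations of log2(scaled TPM + 1) were 0.869 to 0.994 in the 15 pairs without Klf3, highest between Klf2 and Klf6, and 0.249 to 0.617 in the 6 pairs with Klf3. These values describe 12 libraries that share 4 group means. Among 13318 genes, those most like Klf2 were Snhg1 (0.995), Klf6 (0.994) and SNORD94 (0.992), and those most like Klf6 were Snhg1 (0.994), Klf2 (0.994) and Gas5 (0.993). Klf4 was most like Gem (0.996), Zfand2a (0.995) and Sgk1 (0.995), Klf10 most like Hdac7, Zc3h12a and Pim3 (each 0.989), Klf13 most like Pde4b, Prex1 and Luc7l2 (0.989 to 0.991), and Klf7 most like Znf512b, Kidins220 and Eif2ak3 (0.987 to 0.988). Klf3 was most like Ncln (0.975), Fam113b (0.968) and the targeted gene itself, Ikzf1 (0.960).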

How the data were processed

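RNA-seq of 12 libraries was analysed from the table deposited by the authors. Per the labels and the methods, the authors removed ribosomal RNA, prepared directional libraries for 51 bp paired-end sequencing, aligned reads to mm9 with STAR 2.6.0c and counted Ensembl exons by strand with HTSeq 0.6.1. The signal deposited by the authors is TPM, 1000000 per library, and their log2 column adds the value of 1 read. From it reads were recovered (99.9993% of values within 0.1 of a whole number, all but 3). A second deposited table holds the authors' own comparisons and was not used.

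For the 13318 genes that reached a mean of 5 TPM in any group, TPM were divided by trimmed-mean-of-M factors (30% and 5% trimmed), a pseudocount of 1 was added, and limma 3.58.1 (R 4.3.3) with a mean-variance trend was fitted to the 4 groups together. Tests were two-sided, with Benjamini-Hochberg adjustment in each of 5 comparisons, and a gene was called under 0.05. Log2 differences understate changes of low genes. Levels were compared by two-sided exact permutation tests. Scripts were tested on simulated data and run in Python 3.11.15. The KLF genes, the lists and the 5 TPM filter were chosen with earlier results of these data known. Named genes were the 7 KLFs, the called genes and largest changes of each list, control and marker genes, and the 3 genes most correlated with each KLF. The immediate early genes were added later. One gene of the trafficking list and 1 of the B cell markers are not reported here. Alternatives were other filters, scalings and pseudocounts, a replicate block, limma voom on recovered reads and leaving out each library. Sequenced fragments carried no molecular identifiers, so reads understate the error.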

Additional observations from a re-analysis of the deposited data

How the results depend on the processing

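The 35 log2 differences of the KLF genes were recomputed under 22 alternatives each, 770 values in all. Of these 708 kept their direction and their side of the threshold, 27 lost a call, 13 gained one and 22 changed sign. No change of sign touched a called difference. The causes were not tested, except where the setting itself gives them. The scaling sets the centre of a comparison. On TPM as deposited the median of all genes moved to 0.21 and -0.30 for the genotype effects ex vivo and after stimulation and to 0.18 and -0.31 for stimulation in WT and cKO. With Gm10800 left out it moved to 0.15, -0.05, 0.42 and 0.24, and with the 1 TPM filter to -0.02, -0.31, -0.23 and -0.51.

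The KLF genes called ex vivo numbered 0 with the 1 TPM filter or no filter and 1 on TPM as deposited. After stimulation the genotype calls numbered 0 with either filter and 2 without Gm10800, after quantile normalization and with limma voom on reads. The interaction calls numbered 1 without Gm10800 and 2 with quantile normalization or voom. With the 1 TPM filter no genotype call was left in the gene lists linked to the KLFs. For stimulation in WT and cKO the same filter gave 0 and 6 of the 9 regulators of KLF2 called as lower and none as higher. It gave 1 and 4 of the 9 TGF-beta genes and 3 and 7 of the 8 other KLF and SP genes as lower. In cKO these lower calls were more than the 3, 3 and 6 of the main fit. Of all calls with that filter, 83.5% in WT and 87.2% in cKO were lower. The share of tested genes called as lower was not computed, so these counts have no such share beside them.

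Over all genes, the calls of the genotype effect ex vivo numbered 704, against 57 with the 1 TPM filter, 56 with no filter, 273 on TPM as deposited (4.76% of them lower, against 31.5%), 750 without Gm10800 (9.07% lower) and 1203 with voom. After stimulation they numbered 923, against 68 with either filter, 306 on TPM as deposited (77.4% lower) and 1579 with quantile normalization. For stimulation in WT they numbered 4262, against 1838, 1694 and 1943 with the 1 TPM filter, no filter and TPM as deposited, and 6340 without Gm10800. Of these calls 60.4% were lower, against 83.5%, 82.1%, 39.5% and 13.7%. In cKO they numbered 5835 (60.5% lower), against 5903 (87.2%), 5743 (87.3%), 4674 (88.1%) and 5608 (31.3%) in the same settings. For the interaction they numbered 147, against 0 with either filter, 67 as deposited (91.0% lower, against 59.2%), 258 without Gm10800 (84.9% lower), 392 with quantile normalization and 395 with voom.

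Leaving out each library in turn gave 324 to 740 calls ex vivo and 398 to 1054 after stimulation between the genotypes, 3256 to 4387 and 4098 to 5992 on stimulation in WT and cKO, and 50 to 203 for the interaction, each with fewer samples. The KLF calls ranged from 3 to 4, 0 to 2, 6 to 7, 6 to 7 and 0 to 1 in the same order. Without WT stimulated replicate 2 the genotype effect after stimulation had 0 KLF calls, and without WT ex vivo replicate 3 it had 2.

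The sources used here do not say whether a replicate number names the same mouse in the ex vivo and stimulated groups. Same-numbered libraries correlated from -0.208 to 0.257 in their deviations (18 pairs), and others from -0.188 to 0.221, so the numbers were not taken to pair them. With the replicate block 65 interactions were called over all genes, and of the KLFs only Klf10 lost a call ex vivo (adjusted p = 0.0538, limma).

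The uncalled log2 differences that changed sign were these. Klf7 ex vivo was 0.14 on TPM as deposited and 0.071 without Gm10800, and ranged to 0.13 when single libraries were left out (without WT ex vivo replicate 1, and 0.015 without cKO ex vivo replicate 2). Klf13 ex vivo ranged from -0.081 (without cKO ex vivo replicate 1) to 0.22 when single libraries were left out. After stimulation the genotype difference of Klf6 was 0.013 with quantile normalization, and that of Klf10 ranged from -0.21 to 0.020 over the libraries left out. For stimulation, Klf3 was 0.12 in WT and 0.019 in cKO without Gm10800, and 0.068 and 0.21 with quantile normalization. The Klf3 interaction was -0.20, -0.22, -0.44 and -0.10 with the 1 TPM filter, no filter, TPM as deposited and Gm10800 left out, and ranged from -0.033 to 0.20 over the libraries left out. That of Klf4 was -0.14, -0.15, -0.37 and -0.038 in the same 4 settings. Depth limits Klf10 most, with 107 reads in the lowest library.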

Other observations

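Genes of quiescence and growth linked to KLF2 and KLF4 were a list of 8 that were all tested. On stimulation 4 fell and 2 rose in WT, and 6 fell and 1 rose in cKO (limma, adjusted p under 0.05), beside 32% and 43.8% of all genes called in either direction and 19.3% and 26.5% called as lower. The largest falls were those of Tob1, an antiproliferative gene of resting T cells, with log2 differences of -1.98 in WT and -2.22 in cKO, and of Btg1, with -1.48 and -1.53. Btg2 followed at -1.43 in both, and Cdkn1b, the gene of the cell cycle inhibitor p27, was at -0.61 and -0.59. Myc rose in both genotypes (0.61 and 0.64) and Slfn2 in WT (0.58). With genes from 1 TPM neither rise was called, and the fall of Cdkn1b was not called in WT. Between the genotypes Cdkn1a, which encodes the inhibitor p21, was higher in cKO ex vivo (1.07, adjusted p = 0.00535, limma) and Foxp1 was lower after stimulation (-0.57, adjusted p = 0.0208, limma), 1 of 8 each beside 5.29% and 6.93% of all genes called. The median of the list was -0.40 for stimulation in WT and -0.71 in cKO.

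Of 9 cofactors through which KLFs act, 8 were tested. Fhl3, a partner of KLF3, was higher in cKO ex vivo (0.48, adjusted p = 0.0328, limma, called in 11 of 22 alternatives), and no cofactor was called between the genotypes after stimulation, beside 5.29% and 6.93% of all genes called. On stimulation Sin3a rose (0.31) and Kat2b fell (-0.94) in WT, while Kat2b (-0.67), Hdac2 (-0.75), Ctbp1 (-0.43) and Fhl3 (-0.39) fell in cKO. These were 2 of 8 called in WT and 4 of 8 in cKO, beside 32% and 43.8% of all genes. The difference of Ctbp1, the corepressor bound by KLF3, turned to 0.07 with quantile normalization. The rise of Sin3a in WT was called in 16 of 22 alternatives, and not with genes from 1 TPM in the fit. With genes from 1 TPM in the fit no gene of the 2 lists was called between the genotypes.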
